A study of Homo sapiens with 6 samples.

Results

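The SOX genes encode transcription factors that bind DNA through an HMG box and are sorted into groups by the likeness of that domain. Their transcripts were measured in A172, an established human glioblastoma cell line, with the RNA-binding protein RBFOX1 supplied or not. The genes described are SOX2 and SOX21 (group SOXB), SOX4 and SOX11 (SOXC), SOX5, SOX6 and SOX13 (SOXD), and SOX8, SOX9 and SOX10 (SOXE), chosen by name as glioma stem and glial factors. These 10 genes are part of the 58051 genes in the count files and of the 19 SOX genes examined here, which leave out SRY.

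Both groups were A172 cells that had received a lentivirus and were kept as stable lines, carrying RBFOX1 or, as the control, GFP, with 3 libraries each. The study's methods name 3 biological replicates each, without saying whether these were separate infections. If they were not, a difference between the lines cannot be told apart from an effect of RBFOX1. Whether a line was a clone or a pool of infected cells is not given in the sources used here, and RBFOX1 in these cells is driven by the vector and not by the cells' own promoter. RBFOX1 had 4, 0 and 1 counts in the GFP libraries and 10276, 16467 and 21451 counts in the RBFOX1 libraries, which matches the labels. The libraries held 7433414 to 23249221 counts assigned to genes. GFP replicate 1, the deepest library, stood apart from the other GFP libraries: the chi-square of its counts against GFP replicates 2 and 3, divided by the degrees of freedom, was 8.90 and 9.07, and that between the latter 1.66, so the fold change of each called SOX gene is also given without it.

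SOX2 keeps neural stem cells undifferentiated and is a core factor of glioma stem cells, while SOX21 of the same group counteracts it. SOX4 and SOX11 act in neuronal precursors and are raised in many gliomas. SOX9 is a factor of astrocytes, radial glia and cartilage, SOX10 and SOX8 act in oligodendrocytes and the neural crest, and SOX5, SOX6 and SOX13 have no transactivation domain and modulate other SOX factors, as SOX5 and SOX6 do beside SOX9 in cartilage.

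The SOX factors moved in both directions. SOX2 and SOX4 were several-fold higher in RBFOX1 than in GFP cells, SOX9 and SOX13 fell to less than 50% of their GFP level, and SOX8 rose from near 0. SOX11 was called slightly lower, but its groups overlapped and the call was lost in 4 of the 6 fits that left out 1 library. Of the 10 genes, 7 reached 10 counts in the 6 libraries together and were tested. By edgeR's quasi-likelihood test, with p-values adjusted by Benjamini and Hochberg over 20536 genes and a threshold of 0.05, 3 were higher, 3 were lower and 1, SOX6, was not called. Among all genes tested, 46.7% passed this threshold, 23.7% as higher and 22.9% as lower. The 5 genes whose normalized counts averaged 50 or more were all called, where 63.8% of the 12012 genes at that level were. Of these 5 genes, 4 differed by at least 2-fold, which 9.48% of the genes at that level did. The groups were fully separate in 5 of the 7 tested genes, as in 53.4% of all genes tested. The members were chosen with earlier results of these data known, and the limits of 2-fold and 50 after seeing the data. These shares therefore describe the members and are no test of the set.

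**Figure D1:**
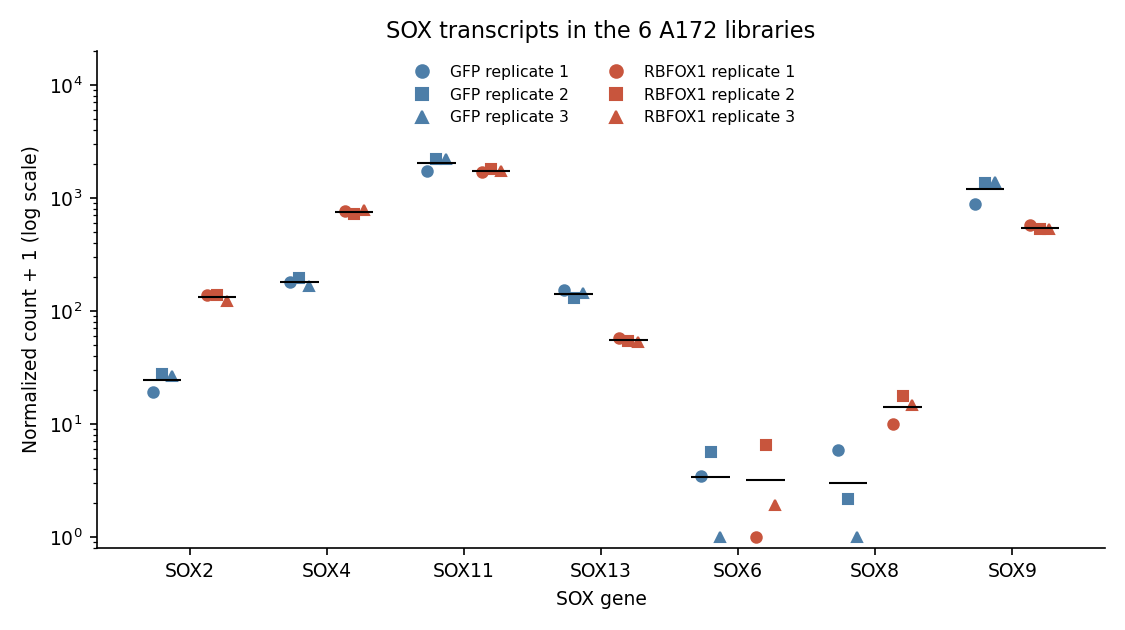
Normalized count plus 1 (log axis) of the 7 tested SOX genes in each library, with GFP libraries in blue, RBFOX1 libraries in red and black lines at the group means. SOX2 and SOX4 lie higher in all 3 RBFOX1 libraries and SOX9 and SOX13 lower, whereas SOX11 in GFP replicate 1 (1731) falls among the RBFOX1 values.

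RBFOX1 binds RNA at TGCATG, and the study asks about its part in mRNA stability. The sense strand of the canonical 3' UTR (GENCODE release 44, GRCh38) was therefore searched for these letters. SOX2, SOX4, SOX9 and SOX13, the members that differed most among those with ample counts, had no TGCATG in 3' UTRs of 1122, 2660, 2029 and 1609 nucleotides. Among protein-coding genes with 3' UTRs within 20% of those lengths, 28.1%, 56.2%, 46.6% and 37.0% held at least 1. SOX8 and SOX10 had none either. SOX11, whose lower call was not stable to leaving out a library, had 2 sites near the end of a 3' UTR of 7338 nucleotides, and SOX12, another SOXC gene that is no member of the set and was not called, had 1. SOX5, SOX6 and SOX21, with few or no counts, had 4, 2 and 1. The windows of 30 nucleotides below are those of SOX11 and SOX12, the SOX genes with a site whose transcripts were well measured, and of SOX6, with TGCATG in capitals. The sites lie at chr2:5700946-5700951 and chr2:5701053-5701058 (plus strand), chr20:328746-328751 (plus strand), and chr11:15972313-15972318 and chr11:15972057-15972062 (minus strand).
SOX11 first site: ttttttagagttTGCATGccagcgcacggc
SOX11 second site: ggggaaagaaaaTGCATGgcaaagtttcgt
SOX12 site: gccctgtggttcTGCATGtctgtgctcttc
SOX6 first site: ggcgtgtgcagcTGCATGtagagcatattc
SOX6 second site: aggttgccacagTGCATGgacccaattgtg
These matches describe the letters only, and absence from the annotated canonical 3' UTR says nothing of binding elsewhere in a transcript. Only the full TGCATG was searched for, so shorter or altered forms of the site within these 3' UTRs were not counted.

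SOX2 (ENSG00000181449) is an intronless gene on chromosome 3 of GRCh38 from 181711925 to 181714436, plus strand. It had 30, 23 and 24 counts in GFP replicates 1, 2 and 3 and 76, 123 and 132 counts in RBFOX1 replicates 1, 2 and 3. After normalization the GFP libraries held 18.2, 26.9 and 25.3 and the RBFOX1 libraries 138, 137 and 121, so every RBFOX1 library lay far above every GFP library. The mean rose from 23.5 ± 4.61 to 132 ± 9.65 normalized counts (SD, n = 3 per group), or 2.53 as log2 fold change (standard error, SE, 0.169, adjusted p = 1.48e-10, edgeR), or 2.32 without GFP replicate 1. Among the 12012 genes averaging 50 or more, this was the gene ranked 135 by absolute log2 fold change. SOX2 lies inside the span of the long noncoding SOX2-OT on the same strand, without shared exon bases in GENCODE release 44. SOX2-OT had 6, 0 and 3 counts against 1, 6 and 5 and was not called (adjusted p = 0.361, edgeR).

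SOX21 (chromosome 13, 94709622 to 94712545, minus strand), the other SOXB member, had 1 count in GFP replicate 1 and 0 in the other 5 libraries. A limit of 3 counts, which a count of 0 allows, was worth 1.82 to 5.44 normalized counts depending on the library, so no fold is given. Such limits cover counting error only. Its antisense neighbour SOX21-AS1 had at most 2 counts in a library.

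SOX4 (ENSG00000124766), intronless on chromosome 6 from 21593751 to 21598619, plus strand, had 294, 165 and 155 counts in the GFP libraries and 421, 647 and 845 in the RBFOX1 libraries. These correspond to 178, 193 and 163 normalized counts in GFP and 764, 718 and 772 in RBFOX1 cells, with no overlap and little spread on either side. From 178 ± 14.7 to 751 ± 28.7 normalized counts (SD, n = 3 per group), the log2 fold change was 2.08 (SE 0.0785, adjusted p = 2.53e-14, edgeR), and 2.09 without GFP replicate 1. The long noncoding gene CASC15, which starts past the end of SOX4 on the same strand, was not called, with a log2 fold change of 0.067 (SE 0.0967, adjusted p = 0.617, edgeR).

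SOX11 (ENSG00000176887, intronless, chromosome 2, 5692384 to 5701385, plus strand) was the SOX gene with the highest counts, 2851, 1877 and 2080 in GFP and 930, 1623 and 1882 in RBFOX1 cells. The normalized counts were 1731, 2192 and 2191 in GFP and 1687, 1802 and 1718 in RBFOX1 cells. GFP replicate 1 lay within the RBFOX1 values, while GFP replicates 2 and 3 lay above them. SOX11 went from 2038 ± 266 to 1736 ± 59.4 normalized counts (SD, n = 3 per group) and passed the threshold with a log2 fold change of -0.22 (SE 0.0727, adjusted p = 0.0158, edgeR). The call was lost in 4 of the 6 fits that left out 1 library, with adjusted p-values of 0.0641 without GFP replicate 2, 0.0845 without GFP replicate 3, 0.0803 without RBFOX1 replicate 1 and 0.0673 without RBFOX1 replicate 3. Without GFP replicate 1 the fold change was -0.33 (SE 0.0453, adjusted p = 1.25e-06). The closest relative of SOX4 and SOX11, SOX12 (chromosome 20, 325552 to 330224), stood at 387 ± 25.0 normalized counts in GFP cells and at 411 ± 17.0 with RBFOX1 (SD, n = 3 per group) and was not called, with a log2 fold change of 0.086 and an interval of -0.064 to 0.235 (95% interval, adjusted p = 0.394, edgeR). The 3 SOXC genes thus gave a rise, a slight fall that depended on which libraries were used, and no detectable difference.

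SOX13 (ENSG00000143842, chromosome 1, 204073115 to 204127743, plus strand) was the SOXD gene with ample counts. It had 250, 110 and 136 counts in GFP and 31, 48 and 57 in RBFOX1 libraries, or 152, 128 and 143 against 56.2, 53.3 and 52.0 normalized counts. All RBFOX1 libraries were below all GFP libraries. The mean went from 141 ± 11.8 to 53.9 ± 2.15 (SD, n = 3 per group), or -1.41 as log2 fold change (SE 0.134, adjusted p = 2.69e-08, edgeR), and -1.34 without GFP replicate 1. The partners of SOX9 in cartilage were barely counted. SOX5 (chromosome 12, 23529504 to 24562544) had no count in any library, and SOX6 (chromosome 11, 15966449 to 16739591) had 4, 4 and 0 counts in GFP and 0, 5 and 1 in RBFOX1 cells. The interval of SOX6's log2 fold change, -1.90 to 1.94, was too wide to show a difference (adjusted p = 0.989, edgeR).

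SOX9 (ENSG00000125398, chromosome 17, 72121020 to 72126416, plus strand) had 1447, 1156 and 1308 counts in GFP and 314, 474 and 575 in RBFOX1 libraries. In normalized counts GFP replicate 1 stood at 878, below GFP replicates 2 and 3 at 1350.0 and 1378, and the RBFOX1 libraries held 569.5, 526 and 525. The groups did not overlap, and GFP replicate 1 lay between the other GFP libraries and the RBFOX1 libraries. The mean went from 1202 ± 281 to 540.3 ± 25.4 (SD, n = 3 per group), or -1.14 as log2 fold change (SE 0.122, adjusted p = 1.52e-07, edgeR), and -1.34 (SE 0.0587) without GFP replicate 1. SOX9-AS1, a noncoding gene on the opposite strand whose span covers SOX9, had 56, 45 and 37 counts in GFP and 17, 17 and 25 in RBFOX1 cells. It was lower too, with a log2 fold change of -0.80 (SE 0.241, adjusted p = 0.00974, edgeR), a call that DESeq2 did not give (adjusted p = 0.0651). It was also lost without RBFOX1 replicate 2 (adjusted p = 0.0666) and on counts thinned to the smallest library (adjusted p = 0.145).

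SOX8 and SOX10 share group SOXE with SOX9. SOX8 (chromosome 16, 981770 to 986979, plus strand) had 8, 1 and 0 counts in GFP and 5, 15 and 15 in RBFOX1 libraries, or 2.01 ± 2.54 against 13.1 ± 3.82 normalized counts (SD, n = 3 per group). The log2 fold change was 2.35 (SE 0.570, adjusted p = 0.00155, edgeR), with the RBFOX1 libraries above the GFP libraries. Most GFP counts of SOX8 came from GFP replicate 1. Without that library the fitted value was 4.31 (SE 0.871), which depends on the prior count, since the remaining GFP libraries held 1 and 0 counts. SOX10 (chromosome 22, 37970686 to 37987422, minus strand) had no count in any library. Its neighbour POLR2F on the opposite strand, an RNA polymerase subunit gene used by every cell, had at most 1 count per library. Reads were counted by strand, so this does not tell whether SOX10 reads were lost. A count of 0 allows up to 3 counts, and that of SOX10 was not read as absence of its transcript.

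**Figure D2:**
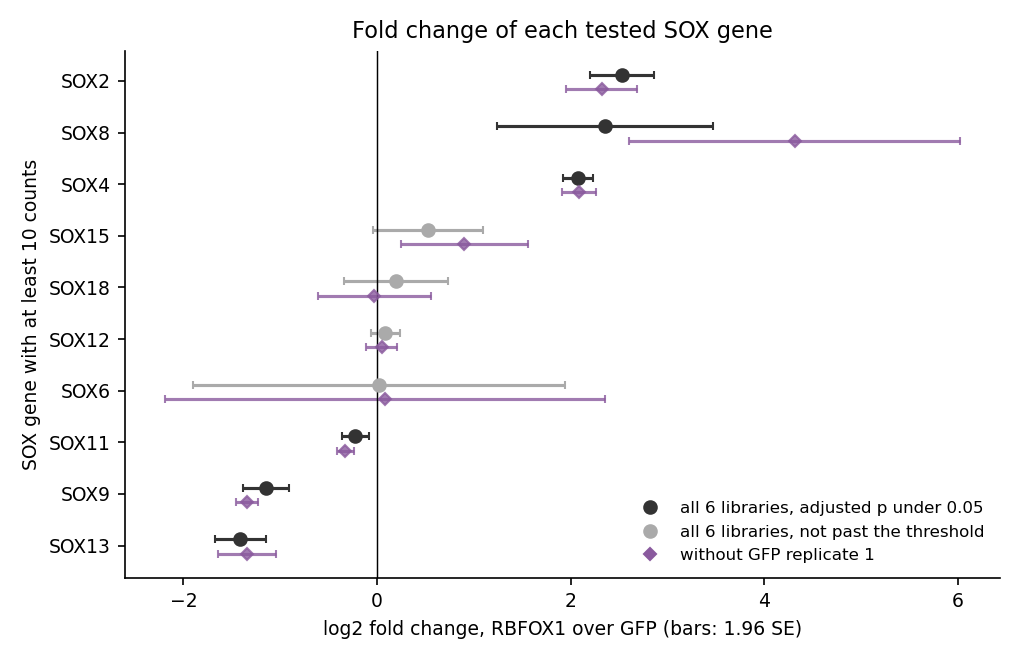
Log2 fold change of the 10 tested SOX genes, RBFOX1 over GFP, with bars of 95% intervals, from all 6 libraries (circles, dark where the adjusted p was under 0.05) and without GFP replicate 1 (diamonds). SOX2, SOX8 and SOX4 lie right of 0, SOX13, SOX9 and SOX11 left of 0, and leaving out GFP replicate 1 moves SOX8 most, from 2.35 to 4.31.

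The other 9 SOX genes gave no call with all 6 libraries. SOX1, SOX3, SOX14 and SOX17 had no count in any library, and SOX7 and SOX30 had at most 1 count in a library. For SOX15 it was 0.53 as log2 fold change (SE 0.289, adjusted p = 0.146, edgeR) and for SOX18 0.19 (SE 0.274, adjusted p = 0.607, edgeR). Without GFP replicate 1, SOX15 passed the threshold with a log2 fold change of 0.90 (adjusted p = 0.0284, edgeR).

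To compare levels between genes, counts were divided by exon length and scaled to the same total in every library. The lengths join the exons of all transcripts of a gene and come from a later annotation than the counts, so the order of genes is approximate. On this scale, among the 6 SOX genes averaging 50 or more normalized counts, SOX9 (66.9 ± 18.6) and SOX11 (49.3 ± 8.87) led in GFP cells, with overlapping ranges across libraries, followed by SOX12 (18.0 ± 2.04), SOX4 (7.93 ± 0.705), SOX13 (4.12 ± 0.276) and SOX2 (2.04 ± 0.489; SD, n = 3 per group). In RBFOX1 cells the order was SOX11 (48.5 ± 1.30), SOX4 (38.8 ± 1.73), SOX9 (34.6 ± 1.87), SOX12 (22.1 ± 1.09), SOX2 (13.2 ± 0.981) and SOX13 (1.83 ± 0.0836; SD, n = 3 per group). The SOX4 and SOX9 ranges nearly touched, at 36.9 to 39.9 and 33.4 to 36.8. Within each GFP library SOX9 was above SOX11, and within each RBFOX1 library SOX4 was above SOX9. SOX4 thus passed SOX9 and SOX12, and SOX2 passed SOX13. The mean level of SOX11 was close to equal in the 2 groups on this scale. GFP replicate 1 held 39.1, below every RBFOX1 library, while GFP replicates 2 and 3 held 53.8 and 55.1, above every RBFOX1 library. This scale set the RBFOX1 libraries higher against the GFP libraries than the normalized counts did, where GFP replicate 1 lay within the RBFOX1 values. SOX12 was separate between the groups here, at 16.0 to 20.1 against 21.2 to 23.3, but overlapped in normalized counts. Differences between groups on this scale, the sum below included, carry that shift. Summed over 19 genes the level was 119, 167 and 175 units in the GFP and 170.1, 165 and 167 in the RBFOX1 libraries, with GFP replicate 1 the lowest. As a share of that sum, SOX9 took 38.1, 45.5 and 45.4% in GFP and 21.6, 20.2 and 20.1% in RBFOX1 libraries. The share of SOX4 went from 6.26, 5.25 and 4.34% to 23.4, 22.3 and 23.9%. SOX2 went from 1.32 ± 0.0912% to 7.88 ± 0.557% (SD, n = 3 per group), and SOX11 went from 32.2 ± 0.649% to 29.0 ± 1.15% (SD, n = 3 per group).

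**Figure D3:**
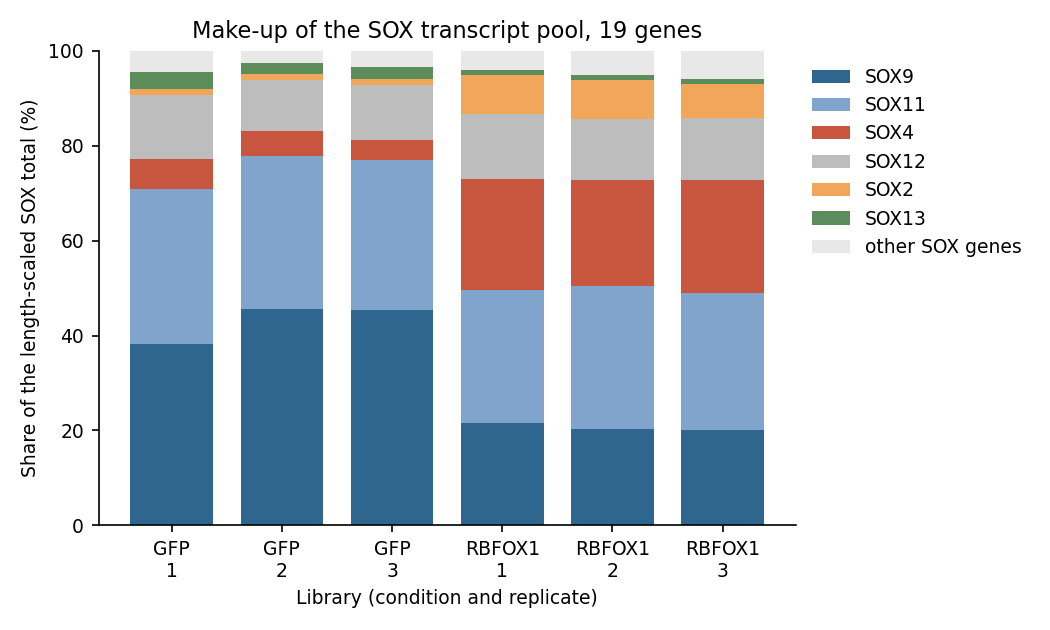
Share (%) of each SOX gene in the summed length-scaled level of 19 SOX genes, 1 bar per library. The SOX9 segment shrinks from 38.1 to 45.5% in GFP libraries to 20.1 to 21.6% in RBFOX1 libraries, and the SOX4 segment grows from 4.34 to 6.26% to 22.3 to 23.9%.

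Ratios of 2 genes counted in the same library do not depend on library scaling. SOX4 had 0.203, 0.143 and 0.119 counts for each SOX9 count in GFP and 1.34, 1.36 and 1.47 in RBFOX1 libraries, a 9.22-fold difference of geometric means. The ratio of SOX2 to SOX9 went from 0.0197 ± 0.00121 to 0.244 ± 0.0150 (SD, n = 3 per group), a 12.4-fold difference. SOX4 to SOX11 differed by 4.93-fold and SOX4 to SOX12 by 3.97-fold. The 2 risers kept closer company, with a SOX2 to SOX4 ratio of 0.102 to 0.155 in GFP and 0.156 to 0.190 in RBFOX1 libraries. The ratio of SOX13 to SOX9, the 2 fallers, was 0.0952 to 0.173 in GFP and 0.0987 to 0.101 in RBFOX1 libraries, which overlap. The groups were separate in 5 of the 6 ratios, though SOX2 to SOX4 only by 0.155 against 0.156. The pairs were formed from genes whose own changes were known. Where one gene rose and the other fell without overlap, as for SOX4 and SOX2 over SOX9, the separation of the ratio follows from them. It likewise follows for SOX4 over SOX11 and SOX12, since SOX4 rose far more than these moved. The ratios are therefore a description and no test is given.

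**Figure D4:**
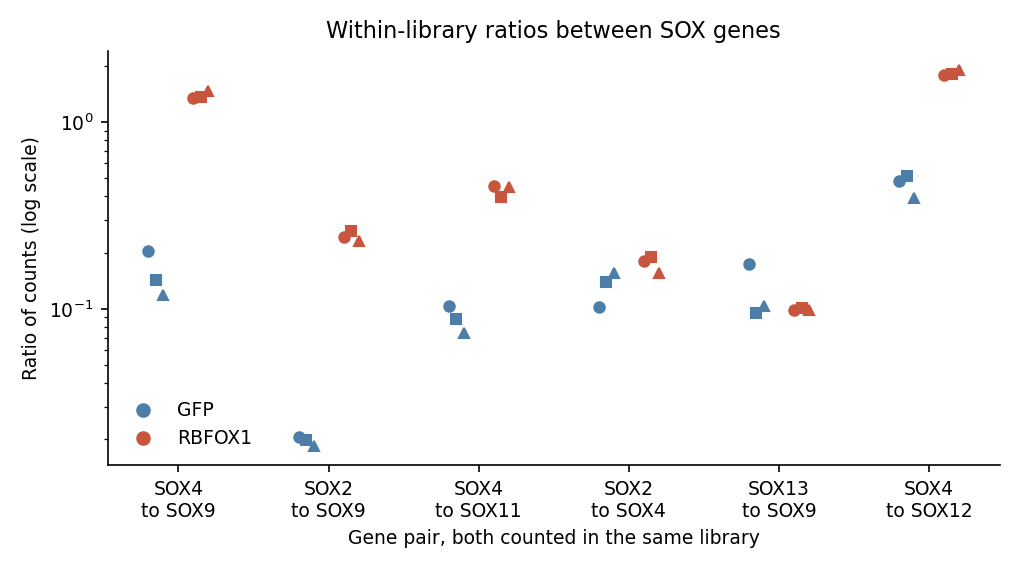
Ratio of the counts of 2 SOX genes in the same library (log axis), with GFP libraries in blue and RBFOX1 libraries in red. The ratios of SOX4 and SOX2 to SOX9 separate the groups widely, 0.119 to 0.203 against 1.34 to 1.47 for SOX4 to SOX9, whereas SOX13 to SOX9 overlaps.

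The genes whose values over the 6 libraries were most like those of SOX2, by the root mean square difference of centred log2(normalized count + 1), were SORBS2 (0.123), MYORG (0.126) and MDGA1 (0.137) among 11068 protein-coding genes with a mean of at least 50. With 2 groups of libraries, this likeness rests mostly on the size of the group difference, a log2 fold change of 2.59 for SORBS2, 2.51 for MYORG and 2.38 for MDGA1.

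Genes that SOX2 works with or that mark neural stem and progenitor cells moved both ways. Of 22 genes, 15 were tested, 6 were higher, 5 lower and 4 not called, or 73.3% called beside 46.7% of all genes tested, with a median log2 fold change of 0.39 against 0.0051 for all genes tested. Nestin (NES), an intermediate filament of neural progenitors, rose by a log2 fold change of 0.60 (SE 0.0513, adjusted p = 6.08e-09, edgeR), from 3482 ± 160.0 to 5272 ± 248 normalized counts (SD, n = 3 per group). MYC (1.01, SE 0.0765) and ZIC1 (0.84, SE 0.0699) also rose, and KLF4, a pluripotency factor, fell (log2 fold change -0.51, SE 0.0857). SOX2, POU3F2, SALL2 and OLIG2 together are known to sustain glioblastoma stem cells, and the other three, picked out of the list for this role, did not move as one. SALL2 was higher (log2 fold change 0.51, adjusted p = 0.00136, edgeR), with 163, 88 and 110 counts in GFP and 91, 140 and 148 in RBFOX1 libraries. POU3F2 was lower (-1.25, adjusted p = 0.00558, edgeR; 0.0504 with DESeq2), from 30, 17 and 24 counts in GFP to 4, 12 and 6 in RBFOX1 libraries. OLIG2 was lower as well (-0.50, adjusted p = 0.00398, edgeR), with 188, 103 and 128 against 46, 68 and 107 counts.

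Of 15 astroglial genes set beside SOX9, 12 were tested, 7 were higher and 1, NFIA, lower (adjusted p = 0.0340, edgeR; 0.185 with DESeq2), or 66.7% called beside 46.7% of all genes tested. With DESeq2, and also on thinned counts, 5 were higher and 0 lower. The median over these genes was 0.75 as log2 fold change, beside 0.0051 for all genes tested. It was 0.50 with groups at 3 counts or fewer set to 3 counts per library. For 2 of them a group held at most 3 counts in every library, which makes their fold changes uncertain. The connexin gene GJA1 rose from 1114 ± 70.4 to 2505 ± 127 normalized counts (SD, n = 3 per group), or 1.17 as log2 fold change (SE 0.0576, adjusted p = 1.32e-12, edgeR), and clusterin (CLU) by 0.48 (SE 0.0481). NFIX, with a log2 fold change of 0.32, lost its call without GFP replicate 1 (adjusted p = 0.0735, edgeR) and without RBFOX1 replicate 1 (adjusted p = 0.10). The astrocyte filament gene GFAP had at most 4 counts in a library, and AQP4 had none.

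SOX9 is known to switch on cartilage matrix genes together with SOX5 and SOX6. Of 14 such genes, 9 were tested, 5 were higher and 1 lower, so that 66.7% were called beside 46.7% of all genes tested, and the median log2 fold change was 0.94. COL11A1, a fibrillar collagen chain, had 29, 7 and 12 counts in GFP and 409, 697 and 828 in RBFOX1 libraries, a log2 fold change of 5.76 (SE 0.131, adjusted p = 1.2e-17, edgeR). HAPLN1, the link protein of the aggrecan matrix, had 260, 118 and 181 counts against 899, 1527 and 1699, a log2 fold change of 3.32 (SE 0.0835, adjusted p = 4.94e-17, edgeR). MATN3 rose by 0.94 (SE 0.0951). COL27A1 was lower (log2 fold change -0.23, SE 0.0649), a call lost without RBFOX1 replicate 3 (adjusted p = 0.0589, edgeR) and on thinned counts (adjusted p = 0.0563). COL2A1, the best known SOX9 target, had 0 counts in GFP and 3, 0 and 2 in RBFOX1 libraries, and ACAN had 1 count in all, so neither was tested.

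Of 21 oligodendrocyte, Schwann cell and neural crest genes that SOX10 and SOX8 act on or beside, 14 were tested, 6 were higher and 2 lower. The share called was 57.1%, beside 46.7% of all genes tested, and the median log2 fold change was 0.62, beside 0.0051 for all genes. MITF, the melanocyte factor that SOX10 activates in the neural crest, rose from 195 ± 12.2 to 693 ± 18.4 normalized counts (SD, n = 3 per group), or 1.83 as log2 fold change (SE 0.0755, adjusted p = 9.69e-14, edgeR). SOX10 itself had no count. TFAP2A rose by 0.82 (SE 0.135), and the myelin gene PMP22 fell (log2 fold change -0.95, SE 0.0681). The myelin genes MOG and MAG had no count in any library.

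Of 16 neuronal or SOXC-linked genes, 11 were tested, 7 were higher and 2 lower, or 81.8% called beside 46.7% of all genes tested (23.7% higher and 22.9% lower). The median log2 fold change was 0.34, or 0.35 with groups at 3 counts or fewer set to 3 counts per library. SEMA3C, a secreted guidance cue that SOX4 is known to induce, rose from 1072 ± 65.9 to 7214 ± 469.9 normalized counts (SD, n = 3 per group), or 2.75 as log2 fold change (SE 0.0599, adjusted p = 6.98e-18, edgeR). MAP2 rose by 1.52 (SE 0.123) and EZH2, a histone methyltransferase that SOX4 is known to activate, by 1.07 (SE 0.0686). NCAM1 fell (log2 fold change -0.61, SE 0.0770). STMN2 had 3, 2 and 1 counts in GFP and 32, 75 and 86 in RBFOX1 libraries, while DCX and NEUROD1 had no count. The lists were written by hand with earlier results of these data known, and none was tested as a set.

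**Figure D5:**
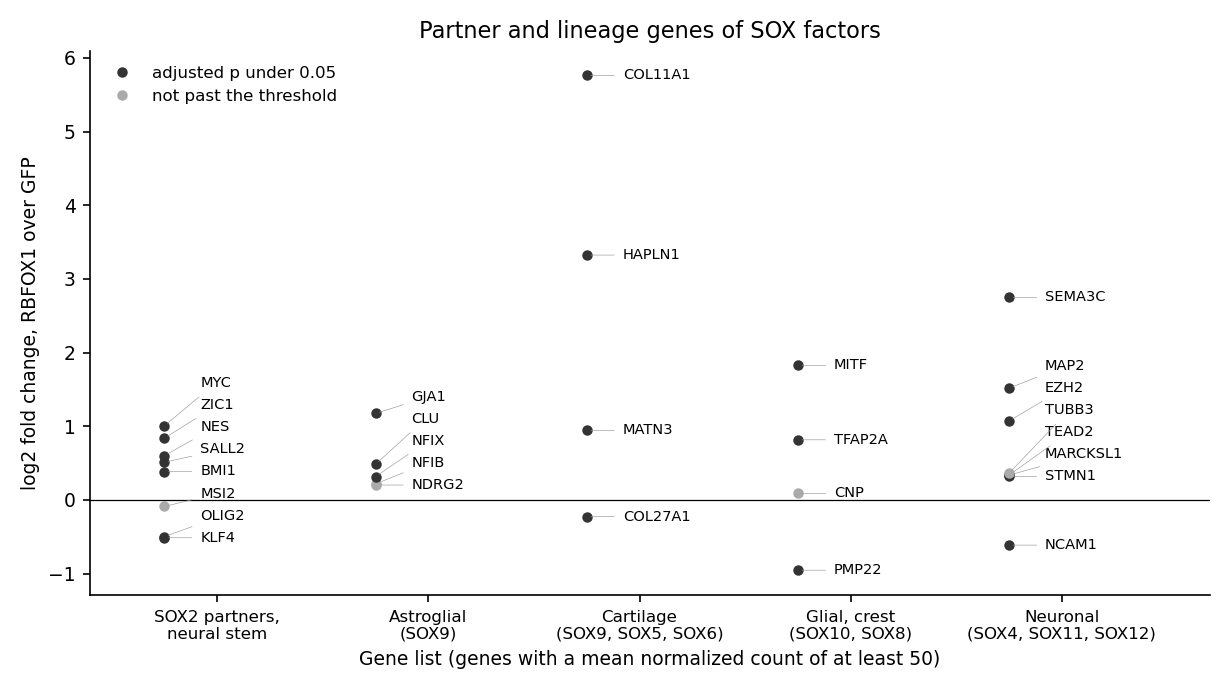
Log2 fold change, RBFOX1 over GFP, of the genes of 5 partner and lineage lists whose normalized counts averaged 50 or more and that are reported here, dark where the adjusted p was under 0.05. COL11A1 (5.76), HAPLN1 (3.32), SEMA3C (2.75) and MITF (1.83) lie highest, and PMP22 (-0.95), NCAM1 (-0.61), KLF4 (-0.51) and OLIG2 (-0.50) lowest.

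Markers of other cell types were set beside these results, since in bulk RNA a change in the number of cells of a type and one in RNA per cell cannot be told apart. The 6 glioblastoma line markers (VIM, CD44, NES, TNC, CHI3L1 and FN1) were all counted and summed to 78454 to 79969.8 normalized counts in GFP and 52195 to 52972 in RBFOX1 libraries, with 2 higher and 4 lower. Summed levels were 4.21 to 7.01 against 10.0 to 12.7 for 4 astrocyte markers, 117 to 136 against 91.0 to 114 for 4 of the oligodendrocyte lineage, 163 to 171.7 against 119.7 to 131 for 5 of neurons, 34.8 to 48.6 against 95.9 to 104 for 4 of myeloid cells, 10.3 to 12.8 against 95.9 to 109 for 3 of endothelium and 2508 to 2559.9 against 7794 to 8164 for 3 of epithelium, and AQP4, MOG and AIF1 were at 0 in every library. Several sums were carried mostly by 1 gene. GAD1 gave 155 to 160 of the neuron sum in GFP and 109 to 120 in RBFOX1 libraries, and no other neuron marker was called. OLIG2, KRT8 and VIM likewise carried the oligodendrocyte, epithelial and glioblastoma line sums. Within the glioblastoma line set, CHI3L1 was far higher (log2 fold change 6.60) and TNC far lower (-3.66). The part of these marker shifts in the SOX results was not tested.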

How the data were processed

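RNA of 3 GFP and 3 RBFOX1 libraries was sequenced by the authors as rRNA-depleted, stranded, paired-end reads. The authors aligned them to GRCh38 with HISAT2 and deposited raw counts per gene from HTSeq-count in intersection-strict mode (Ensembl annotation; reverse strand setting), without normalization. Of all read pairs, 38.15 to 48.0% fell in the 5 classes not counted on a gene, which entered neither library sizes nor tests. A table deposited by the authors with their own DESeq2 comparison was not used.

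Counts were scaled with TMM in edgeR 4.0.16 under R 4.3.3 and compared two-sided by its quasi-likelihood test, condition as the only term, over genes with at least 10 counts in the 6 libraries; normalized counts are counts over the scaled library size. Standard errors were derived from the F statistic. Alternatives were DESeq2 1.42.0, limma-voom 3.58.1, other scalings and filters, thinned counts, a replicate block and each library left out; a fold minimum and a mean of at least 50 were chosen after seeing the data. Replicates were described as biological in the study's methods, and pairs within a group gave chi-square values of 1.66 to 9.07 per degree of freedom. The fits were also run on simulated counts with a common spread for all genes, 200 changed genes averaging 50 or more and no library set apart. That setting is simpler than the data, so it says nothing of genes with few counts or of GFP replicate 1.

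Symbols, coordinates, exon lengths and 3' UTRs came from GENCODE release 44, later than the annotation counted on, and 98.1% of gene identifiers matched. Overlap of genes was read from that release. The members and lists were chosen with earlier results of these data known. Genes named were RBFOX1, all SOX genes except SRY, transcripts near members, and in each list up to 4 genes with the largest absolute log2 fold change among those with an adjusted p under 0.05, a mean of at least 50 and no overlap, plus the 3 genes most like SOX2. The other list genes named (SALL2, POU3F2, OLIG2, NFIA, GFAP, AQP4, COL2A1, ACAN, MOG, MAG, STMN2, DCX and NEUROD1) were chosen after their values were seen. Some list genes that enter the counts are not reported here.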

Additional observations from a re-analysis of the deposited data

How the results depend on the processing

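The call and direction of SOX2, SOX4, SOX9, SOX13 and SOX8 held in every alternative that tested them; the strict low-count filter left SOX8 out. SOX11 lost its call in the 4 fits named above. Directions reversed only in genes that were not called: SOX6 had log2 fold changes of -0.00475 with upper-quartile scaling, -0.054 with DESeq2, -0.077 with the replicate block and -0.44 to 0.58 with 1 library left out, and SOX18 had -0.41 on thinned counts and -0.028 to 0.30 with 1 library left out. Of the SOX genes outside the set, 0 to 1 were called when 1 library was left out, the 1 being SOX15 without GFP replicate 1. Called astroglial genes numbered 8, but 5 with DESeq2 and 5 on thinned counts. Of all genes, 9581 were called, and 2611 at a log2 fold change of at least 1 either way, a limit chosen after seeing the data. The cause of these differences was not tested.

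Same-numbered GFP and RBFOX1 libraries did not deviate together (correlations over 12012 genes of -0.172, 0.0348 and -0.0568), so the numbers were not taken as pairs. With the replicate block, 9046 genes and the same number of SOX members, 6, were called. SOX6, SOX8, SOX21, SOX5 and SOX10 had too few counts for a difference to be read with precision or at all.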
